A study of Mus musculus with 3 samples.

Results

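Sall1 and Sall4 are spalt-like zinc-finger transcription factors, and the peaks of FLAG-tagged Tex10 around their genes are described here. The members are the rows of the deposited peak list that overlap 1 of 2 windows on the mm9 mouse genome by at least 1 bp. The Sall1 window, drawn to take in a flanking cluster of peaks, spans 120 kb (chr8:91500000-91620000) and the Sall4 window 130 kb (chr2:168520000-168650000). They hold 12 of the 5189 peaks of the list, 8 in the Sall1 window and 4 in the Sall4 window. The windows were selected on the positions of peaks in this same list, so the number of peaks inside them and their closeness are given as a description, with no test.

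In ChIP-seq, chromatin is broken up, pieces attached to a chosen protein are pulled down with an antibody, and their DNA is sequenced. The series holds 3 libraries, each the only one of its kind: an immunoprecipitation with an antibody against FLAG, one with normal mouse IgG, and input DNA. All 3 came from J1 mouse embryonic stem (ES) cells, of 129SV strain, in which a piggyBac transposon had delivered an ectopic transgene for Tex10 with a 3xFlag tag (T10F10 cells). The cells were grown in serum with leukaemia inhibitory factor on gelatin. No peak list of the IgG or input library was analysed here, so no background level stands beside the peaks, and no group of cells without the transgene was among the libraries. The list gives each peak a position and 1 number, used here as a score that ranks peaks within the list. Its scale is not named and its depth in reads is unknown.

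Proteins of the Sall family bind DNA through pairs of zinc fingers and recruit the nucleosome remodelling and deacetylase (NuRD) complex through a short N-terminal motif. Sall4 is required for the early embryo and for stable self-renewal of ES cells, where it works with Oct4 and Nanog. Sall1 is also expressed in ES cells and is best known for its role in kidney development. Tex10 is a nuclear protein of a complex that acts in ribosome production, and the series title links it to super-enhancers, runs of closely spaced enhancers found beside genes that set cell identity.

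Gene names and gene order came from RefSeq on another assembly (GRCm38.p6), so peaks were not placed in exons, introns or promoters, and the presence of each gene in its window was taken from the definition of the window. On that assembly the genes lie on the same chromosomes, 8 and 2, and are 16.9 kb (Sall1) and 18.9 kb (Sall4) long, so each window is about 7 gene lengths wide and most of it is flanking DNA. The nearest protein-coding neighbours of Sall1 in that assembly are Cyld, a deubiquitinase gene, and Tox3, a gene of an HMG-box protein. Those of Sall4 are Atp9a, which encodes a membrane phospholipid flippase, and Zfp64, which encodes a zinc-finger protein.

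The Sall1 window was marked by 1 strong peak within a cluster, with weaker peaks on the side of higher coordinates. Peaks are numbered here by position. The strongest, peak 2 of the Sall1 window (chr8:91527217-91527847, 631 bp), scored 35.8. That score ranked 112 in the list, within the highest 2.16%, and 6 among the 443 peaks of chromosome 8. Peak 3 (chr8:91530326-91530742, 417 bp) scored 9.31 and ranked 863, and its centre lay 3.00 kb from that of peak 2. These were the highest scores of the window, and no other peak in it reached the upper quartile of the list, 7.73.

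Peak 1 of the Sall1 window (chr8:91515746-91516498) was the widest of the 12 peaks at 753 bp, wider than 97.6% of the list, but scored 6.21, rank 1938. A wide peak of modest score was not rare: 125 peaks of the list were at least 753 bp wide, and 32 of them scored no higher than this one. Peak 5 (chr8:91539474-91539845, 372 bp) scored 5.54, rank 2356, close to the list median of 5.22. Peak 4 (chr8:91536003-91536487, 485 bp) was the weakest of the window, with a score of 2.67 and rank 4825, although it lay between peaks 3 and 5. Strong and weak peaks therefore stood side by side within the cluster.

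The remaining peaks of the Sall1 window were farther off, and all of them scored below the list median. Peak 6 (chr8:91566537-91567038, 502 bp) scored 4.56, rank 3148, and had its centre 39.3 kb from that of peak 2. Peak 7 (chr8:91588200-91588427) scored 4.95, rank 2746, and at 228 bp it was the narrowest of the 12, only slightly above the narrowest width in the list, 224 bp. Peak 8 (chr8:91597008-91597352, 345 bp) scored 4.05, rank 3647, with its centre 69.6 kb from that of peak 2.

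The Sall4 window held a short group of peaks of ordinary score and 1 weak peak apart from it. Peak 2 of the Sall4 window (chr2:168591321-168591593, 273 bp) scored highest, 6.89, and ranked 1577 in the list and 131 among the 384 peaks of chromosome 2. Peak 1 (chr2:168588164-168588445, 282 bp) scored 6.26, rank 1917. Peak 3 (chr2:168591766-168592223) was the widest at 458 bp and scored 4.44, rank 3249. Only 172 bp separated peaks 2 and 3, a gap matched or undercut by 59 of the 5166 gaps between neighbouring peaks of the list, and they are counted as separate peaks, as deposited. Peak 4 (chr2:168616527-168616831, 305 bp) lay 24.3 kb beyond peak 3, scored 2.11 and ranked 5080, near the bottom of the list, whose lowest score was 1.31. None of these peaks reached the upper quartile of the list.

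**Figure D1:**
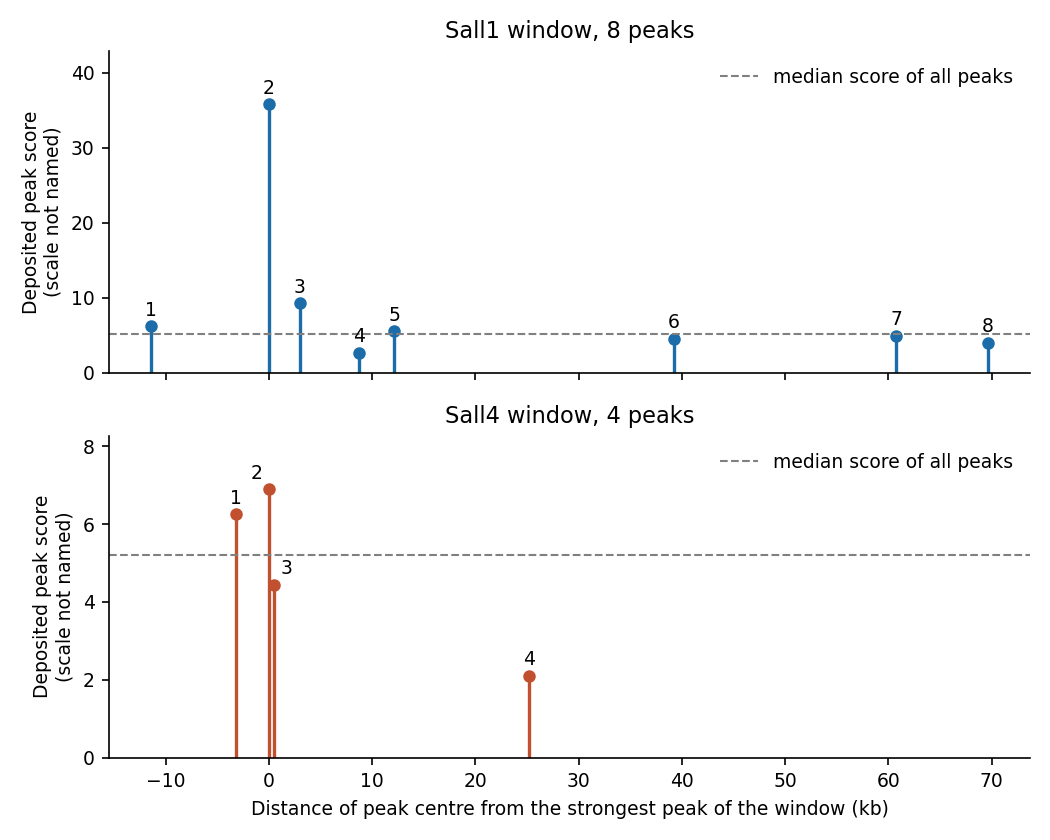
Deposited score of each peak (vertical axis, a separate range for each window) against the distance in kb of its centre from the strongest peak of the same window, for the 8 Sall1 and 4 Sall4 peaks, numbered by position. The dashed line is the median score of the list, 5.22; in the Sall1 window peak 2 stands at 35.8 and the next highest at 9.31, whereas the Sall4 peaks lie between 2.11 and 6.89.

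The windows had close median scores and different highest scores. The median score was 5.24 over the 8 Sall1 peaks (range 2.67 to 35.8) and 5.35 over the 4 Sall4 peaks (range 2.11 to 6.89), against 5.22 over the list (quartiles 3.75 and 7.73). Of the 12 peaks, 6 scored at or above the list median, 4 of them in the Sall1 window and 2 in the Sall4 window, a share like that of the list (50%). A score of at least 10 was reached by 1 Sall1 peak and by 0 of the Sall4 peaks, against 14.5% of the list. The Sall4 peaks all fell within the range of the Sall1 peaks except the lowest. No test was made between the windows, since peaks of 1 library are not replicates.

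Median widths were further apart. The windows were chosen on peak positions, and whether peak width is independent of that choice was not tested. The 8 Sall1 peaks had a median width of 451 bp (228 to 753 bp) and the 4 Sall4 peaks 294 bp (273 to 458 bp), against 314 bp over the list (quartiles 253 and 402 bp). In the Sall1 window 7 of 8 peaks were wider than the list median, and in the Sall4 window 1 of 4, against 49.8% of the list. On chromosome 8 as a whole 53.0% of peaks passed that width, and on chromosome 2 52.1%. The Sall4 widths lay wholly inside the range of the Sall1 widths, and with so few peaks from 1 library no test was made. Together the peaks covered 3733 bp, or 3.11%, of the Sall1 window and 1318 bp, or 1.01%, of the Sall4 window.

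**Figure D2:**
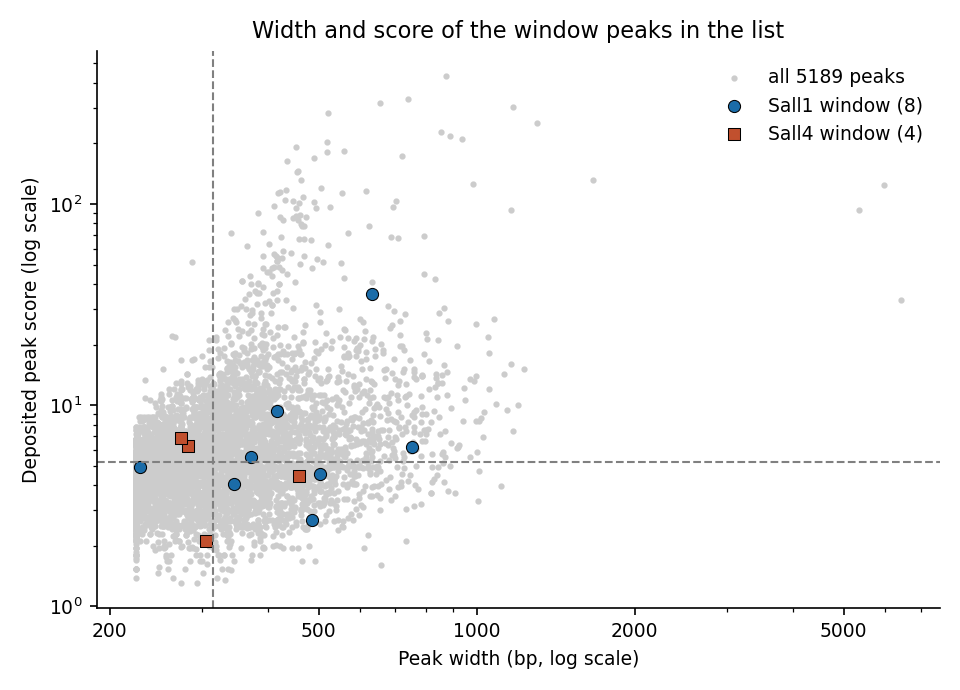
Width in bp (horizontal, log scale) and deposited score (vertical, log scale) of all 5189 peaks (grey), the 8 Sall1 peaks (blue circles) and the 4 Sall4 peaks (red squares), with dashed lines at the list medians of 314 bp and 5.22. Of the Sall1 peaks 7 lie right of the median width, and peak 2, at 631 bp and 35.8, stands above the others; 3 of the Sall4 peaks lie left of it.

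The peaks of the Sall1 window formed a group of 5, a single peak and a pair. Here a stretch is a run of peaks with under 12.5 kb between each and the next, a distance commonly used to join enhancers into super-enhancers. Peaks 1 to 5 made a stretch of 24.1 kb (chr8:91515746-91539845), with gaps of 10.7, 2.48, 5.26 and 2.99 kb between them. A gap of 26.7 kb set peak 6 apart, and another of 21.2 kb led to peaks 7 and 8, which were 8.58 kb from each other. All of these gaps were below the median gap of the list, 139 kb, a closeness that the choice of the window fixes.

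Among the 161 stretches of at least 3 peaks in the list, 20 held 5 or more, and 5 of these 20 were on chromosome 8. That chromosome held 23 of the 161 stretches and 443 of the 5189 peaks. By length the Sall1 stretch (24.1 kb) ranked 10 of the 161, whose median was 8.89 kb. Over the 20 stretches with 5 or more peaks the median length was 19.2 kb. The highest score of the Sall1 stretch ranked 8 of the 161, and 3 of those 20 stretches had a higher one. The window was drawn to take in this cluster, so these ranks are a description. The median of the highest scores was 13.0 over those 20 and 8.67 over the 161.

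The Sall4 stretch was compact. Peaks 1 to 3 spanned 4.06 kb (chr2:168588164-168592223), with gaps of 2.88 kb and 172 bp. It was 1 of 108 stretches of exactly 3 peaks, whose median length was 6.75 kb, and 35 of those were shorter. Its highest score, 6.89, lay close to the median of the highest scores of these 108, 7.33, and 40 of them had a lower one. Thus 8 of the 12 peaks (5 of Sall1 and 3 of Sall4) belonged to stretches of at least 3, against 11.6% of the 5187 peaks that are not mitochondrial, a difference that the choice of the windows brings with it. The Sall4 stretch rested on the 172 bp gap: with peaks under 500 bp apart joined it held 2 peaks and was no longer a stretch of at least 3. Then 5 of 11 peaks of the windows, each of them in the Sall1 window, were in such stretches, against 8.58% of the joined list.

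No peak outside the windows lay within 100 kb of their edges. The nearest peak before the Sall1 window (chr8:91347816-91348258) scored 10.9 and ended 152 kb from its edge, and the nearest after it (chr8:92347559-92347859) scored 8.28 and began 728 kb away. The outermost members were peak 1, scoring 6.21 and starting 15.7 kb inside the window, and peak 8, scoring 4.05 and ending 22.6 kb inside it. The nearest peak before the Sall4 window (chr2:168032748-168033079) scored 4.76 at 487 kb, and the nearest after it (chr2:168780452-168781170) scored 8.73 at 130 kb. Its outermost members were peak 1, scoring 6.26 and starting 68.2 kb inside the window, and peak 4, scoring 2.11 and ending 33.2 kb inside it. In the 1000 kb on each side the Sall1 window had 3 further peaks, or 1.5 per Mb, where chromosome 8 as a whole had 3.36 per Mb. The corresponding count for Sall4 was 4, or 2 per Mb, where chromosome 2 had 2.11 per Mb. Over all assembled chromosomes the list had 1.95 peaks per Mb, below chromosome 8 and near the values on the sides of both windows. The windows were drawn around known peaks, and the counts beside them are small, so no conclusion is drawn from the contrast.

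To place the counts in the list, the 21 chromosomes were divided end to end into tiles of each window's length. Of 22113 tiles of 120 kb, 9 held at least 8 peaks (0.0407%), and 2 of these were among the 1097 tiles of chromosome 8 (0.182%). Of 20413 tiles of 130 kb, 149 held at least 4 peaks (0.73%). A tile edge fell between peaks 5 and 6 of the Sall1 window, and another between peaks 3 and 4 of the Sall4 window. Neither locus is therefore among the 9 or the 149 tiles. With the tiles shifted along the chromosomes the shares were 0.0498% for the Sall1 count and 0.730% for the Sall4 count. Tiles were placed without regard to peaks, whereas the windows were drawn around them, so the shares describe how often such counts occur and are no measure of chance. Windows of the same length centred on each of 5187 peaks, a setting chosen after seeing the data, held at least 8 peaks in 109 cases (2.10%) for the Sall1 length and at least 4 in 796 cases (15.3%) for the Sall4 length. The Sall1 and Sall4 windows are not centred on a peak, and centred windows of neighbouring peaks overlap, so 1 cluster can count several times. These shares are therefore a description and not a frequency of loci.

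**Figure D3:**
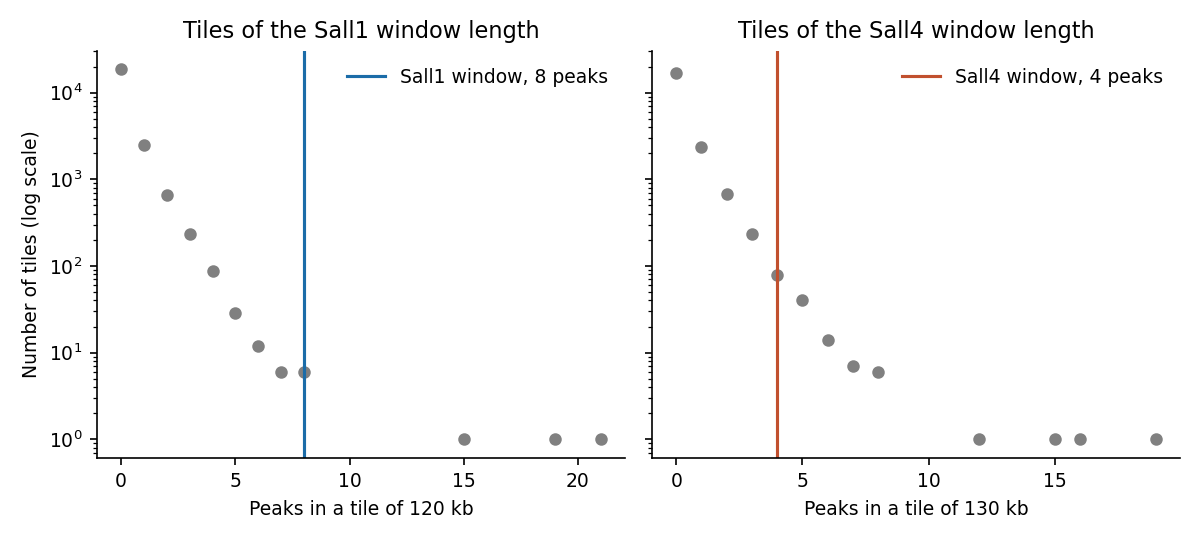
Number of tiles (vertical, log scale) by the peaks they held, for tiles of 120 kb (left) and 130 kb (right) over the autosomes, X and Y, with the count of the Sall1 window (8) and of the Sall4 window (4) as vertical lines. Of the 120 kb tiles 9 lie at or beyond the Sall1 line, and of the 130 kb tiles 149 lie at or beyond the Sall4 line.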

How the data were processed

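The members, the windows and the quantities described were chosen with earlier results of these data known. The authors deposited 1 headerless list of peaks, for the FLAG library, with a chromosome, start, end, name and a number for each. That number is used as a score, as deposited, since neither its scale nor the peak caller nor its control is given in the sources used here. Positions in bp are in the mm9 build per the submitters' processing notes, which also name Bowtie 1.0.0, bedtools 2.18.1, SAMtools 0.1.19 and FastQC 0.10.1 without their roles. Starts were made 1-based. Every peak overlapping a window by at least 1 bp was taken and named, with the nearest peak on each side of the window.

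Python 3.11.15 with numpy 2.4.6, pandas 2.3.3, scipy 1.17.1 and matplotlib 3.10.9 was used. Chromosome lengths of mm9 came from GenomeInfoDb 1.38.1 under R 4.3.3. Ranks and medians are over all 5189 peaks. Stretches and tiles leave out the 2 mitochondrial peaks, and tiles shorter than the window at chromosome ends were dropped. Joining and counting were tested on simulated lists with planted clusters. With 1 library and no replicate, no test was run. Peak sequences and gene features on mm9 were not used here. Alternatives changed the score filter, overlap rule, window size, joining distance and tiling.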

Additional observations from a re-analysis of the deposited data

How the results depend on the processing

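Of 52 alternative values, 40 stayed within 1.5 times the main count, or within the interval that counting or the spread of the peak scores allows. Many of these 40 could not have moved. No peak lay within 100 kb outside a window, and the outermost members lay at least 15.7 kb inside. The midpoint rule and widening by 50 kb therefore kept the same members. So did narrowing by 20 kb for Sall4, whose members lay at least 33.2 kb inside. Sall1 gaps of at least 2.48 kb left nothing to join under 500 bp, and the 26.7 kb gap fixed its largest stretch at a joining distance of 25 kb. With only peaks at or above the median score, the Sall1 window held 4 peaks (largest stretch 4) and the Sall4 window 2 (largest stretch 2), and 0.163% and 1.98% of tiles held at least as many. Joining peaks under 5 kb apart left at most 2 peaks in a Sall1 stretch, because the gaps of 10.7 and 5.26 kb then divide it. Joining peaks under 500 bp apart left 3 Sall4 peaks with 2 in the largest stretch, and 1.65% of tiles held at least 3. That stretch of 2 is among the 40, although it was no longer a stretch of at least 3. The share of tiles with at least the count of the window was 0.182% (Sall1) and 0.501% (Sall4) on the same chromosome, 0.257% and 4.32% among tiles with a peak, and 2.10% and 15.3% for windows centred on peaks. Leaving out the strongest peak gave a median score of 4.95 for Sall1 and 4.44 for Sall4, both below that of the list. That outcome was fixed in advance, since only 4 of the 8 Sall1 peaks and 2 of the 4 Sall4 peaks reached the list median. This setting and the windows centred on peaks were chosen after seeing the data. No paired analysis was possible because only the FLAG library was used. What the sequencing depth limits was not tested, since the depth is unknown.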
